A study of Oryctolagus cuniculus with 8 samples.

Results

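Retinas of rabbits kept on a high-sucrose diet (HSD) were compared with retinas of rabbits kept on a normal diet (ND). The comparison covers every gene and has 2 retinas in each group, 4 of the 8 retinas sequenced. All retinas came from wild-type male Chinchilla rabbits of about 10 months that had been fed for 6 months. The ND group ate standard chow without additions, and the HSD group ate chow with 40% sucrose. The remaining groups were a high-fat diet (HFD, with 10% lard and 0.5% cholesterol) and a diet high in both (HFSD, with the same lard and cholesterol and 35% sucrose). The HFD and HFSD retinas share no sample with the HSD against ND comparison, so HFSD against HFD served as a second comparison of sucrose with no added sucrose. The p-values of both came from a single model of all 8 retinas. Genes chosen by p in HSD against ND were therefore not chosen independently of the HFD and HFSD retinas. No source states that the 2 retinas of a group came from different rabbits, and p-values measure the spread between these retinas only.

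Sucrose is cleaved in the gut into glucose and fructose. In tissue, glucose can be reduced to sorbitol by aldose reductase (AKR1B1) and oxidised to fructose by sorbitol dehydrogenase (SORD), and fructose is phosphorylated by ketohexokinase (KHK). The neural retina holds rods and cones, the interneurons and ganglion cells that read them, and Müller glia, while the pigment epithelium behind the rods recycles the visual pigment. In rabbits the retinal blood vessels, astrocytes and myelin lie along a band of nerve fibres on either side of the optic disc. The dorsal and ventral retina are set by different genes, TBX5 dorsally and VAX2 ventrally, and short-wavelength cones are densest ventrally in the rabbit.

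The data are FPKM values, that is, fragment numbers divided by gene length and library depth. The depth recovered from the steps of these values was 15764577 and 17249551 fragments in HSD and 19561990 and 17706804 in ND, and lay between 15764577 and 22785832 over all 8. On a gene of 1000 bases, 1 fragment was worth between 0.0439 and 0.0634 FPKM. The labelled tissue was checked on 13 rod genes, whose summed level was 52383 and 58669 FPKM in ND and 49149 and 47482 FPKM in HSD. Log2 values correlated across genes with r = 0.9704 between the ND retinas and r = 0.979 between the HSD retinas. HSD replicate 2 stood apart through skeletal muscle genes, which were set aside as described below, and the ND retinas lay far apart from each other in single genes of astrocytes, myelin and vessels.

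Few single genes separated the groups beyond the spread between retinas. With limma on log2(FPKM + 1) and Benjamini-Hochberg adjustment, 7 of 12204 tested genes (0.0574%) had an adjusted p under 0.05, of which 3 rose and 4 fell in HSD retinas. Without adjustment, 879 genes (7.2%) had a p under 0.05, 329 higher (2.7%) and 550 lower (4.51%). Outside the muscle set, 321 were higher (2.64%) and 549 lower. This excess of lower genes depended on the model and on ND replicate 1. Outside that set, voom on the recovered fragments gave 383 higher and 405 lower, and 641 were higher and 619 lower without ND replicate 1. The median log2 fold change over all tested genes was -0.002, and 50.5% lay below 0.

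S100A13, a calcium-binding protein involved in the release of growth factors, had the largest fall of the called genes. It was at 28.4 and 38.7 FPKM in ND and at 2.70 and 3.84 FPKM in HSD, or -3.01 in log2 fold change (standard error 0.21, adjusted p = 0.00715 in limma with Benjamini-Hochberg adjustment). S100A1, a related calcium-binding protein, was at 122 and 212 FPKM in ND and 27.9 and 26.3 FPKM in HSD (-2.52, standard error 0.26, adjusted p = 0.0410). Both HSD retinas lay well below both ND retinas for each of these genes. Of the 7 S100 genes tested, 6 were lower in HSD (50.5% of all tested genes), and these 2 were the members called (0.0574% of all tested genes).

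PXYLP1, a phosphatase that acts on xylose in the linker of glycosaminoglycan chains, fell from 140.1 and 240.5 FPKM to 38.1 and 43.0 FPKM (-2.15, standard error 0.23, limma Benjamini-Hochberg adjusted p = 0.0433). SRGN, the core protein of the proteoglycan serglycin, is known from blood and endothelial cells. It fell from 38.8 and 42.3 FPKM to 10.5 and 12.6 FPKM (-1.73, standard error 0.16, limma Benjamini-Hochberg adjusted p = 0.0349). The ND retinas differed by more between themselves for PXYLP1 than for SRGN, and neither gene overlapped between the groups.

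OPN1SW, the opsin of short-wavelength cones, was at 69.1 and 67.6 FPKM in ND and rose to 255 and 290.3 FPKM in HSD (1.98, standard error 0.20, limma Benjamini-Hochberg adjusted p = 0.0367). BAG2, a co-chaperone of HSP70, rose from 37.0 and 36.7 FPKM to 75.7 and 72.2 FPKM (0.99, standard error 0.10, limma Benjamini-Hochberg adjusted p = 0.0349). The 2 retinas of each group lay close together for BAG2, and for OPN1SW both HSD retinas were several fold above both ND retinas. The remaining called gene carries no symbol in the table. It was at 23.4 and 15.8 FPKM in ND and at 256 and 240.3 FPKM in HSD (log2 fold change 3.62, standard error 0.22, limma Benjamini-Hochberg adjusted p = 0.00493).

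**Figure D1:**
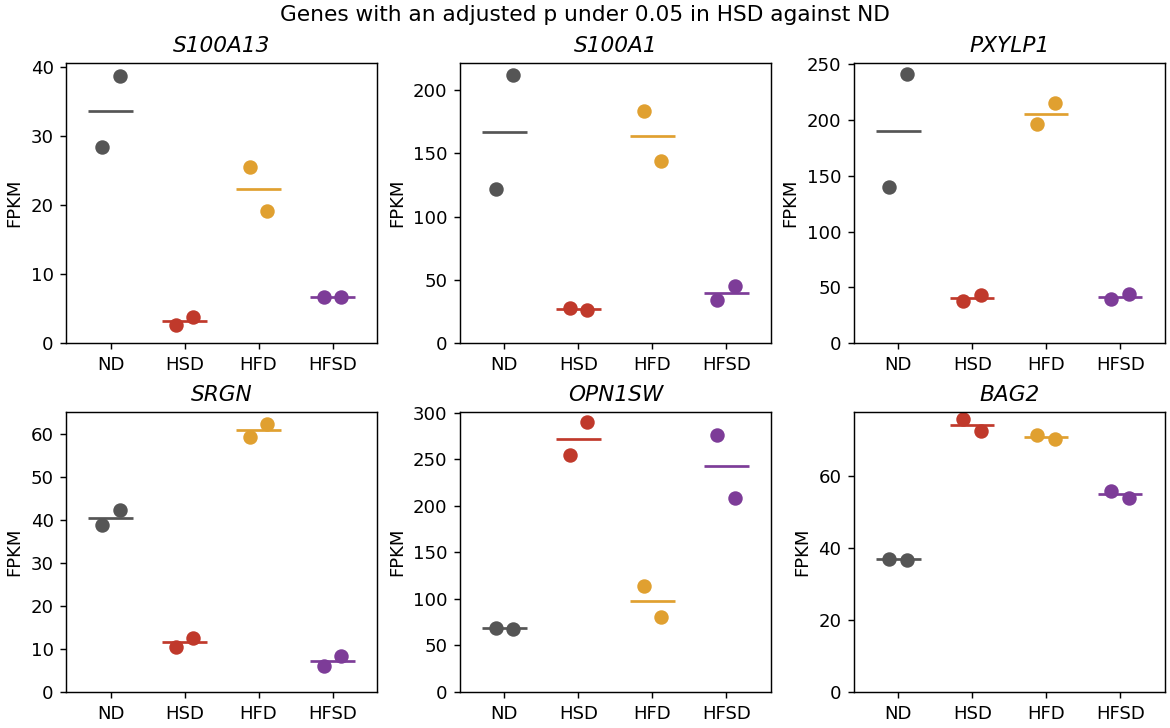
FPKM (vertical axes, from 0) in each retina for the 6 called genes with a symbol, with points for retinas and lines for the mean of the 2 retinas of a diet. In HSD retinas S100A13, S100A1, PXYLP1 and SRGN lie below both ND retinas and OPN1SW and BAG2 above them, and in HFD retinas BAG2 (71.3 and 70.1 FPKM) is also above ND.

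These calls were made on 2 retinas a group and were sensitive to the choice of libraries. Over 10 alternative fits, S100A13 was called in 7 and the gene without a symbol in 9, PXYLP1 in 5, OPN1SW and S100A1 in 4 each, and BAG2 and SRGN in 3 each. The largest limma Benjamini-Hochberg adjusted p over those fits was 0.321 for PXYLP1, OPN1SW, BAG2 and S100A1, 0.164 for SRGN, 0.086 for S100A13 and 0.0622 for the gene without a symbol. The number called was 2 with voom, and with a retina left out it ran from 3, without HSD replicate 2, to 17, without HSD replicate 1, and was 12 without ND replicate 2 and 5 without ND replicate 1.

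A rule of size with no account of the spread was also applied, with the fold formula and limits that the study gives. Here it was taken on the group means, each plus 1 FPKM, and 762 of 19293 protein-coding genes (3.95%) lay past the limits of 0.65 and 1.54, 295 higher (1.53%) and 467 lower (2.42%) in HSD. Without the muscle set these were 208 higher (1.08%) and 466 lower (2.43%). When each of 4 retinas was omitted, 62 genes passed the upper limit every time, 4 of them of the muscle set, and 141 passed the lower limit every time.

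Genes of the dorsal retina were lower in HSD, together. All 10 dorsal genes tested were below ND in both HSD retinas, where 19.7% of all tested genes lay below without overlap, and 8 of the 10 had an unadjusted p under 0.05, against 4.51% of all tested genes. Their median log2 fold change was -0.91, and ran from -1.07 to -0.80 on omitting single retinas. None of the 10 had an adjusted p under 0.05. The list was written with earlier results of these data known, so these counts are a description and not a test.

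TBX5, a transcription factor of the dorsal retina, was at 3.27 and 9.85 FPKM in ND and 0.0175 and 0.0320 FPKM in HSD, the latter resting on 1 and 2 fragments (-2.73 on the log2(FPKM + 1) scale, which understates differences in such low genes, adjusted p = 0.153 in limma with Benjamini-Hochberg adjustment). ALDH1A1, which makes retinoic acid dorsally, was at 13.8 and 67.5 FPKM in ND and 1.16 and 3.79 FPKM in HSD (-3.31, limma Benjamini-Hochberg adjusted p = 0.317). The ND retinas differed several fold from each other in both genes, and both lay above both HSD retinas. NR2F2, a nuclear receptor of the dorsal eye, was at 9.30 and 15.5 FPKM against 1.39 and 2.34 FPKM. Both ND retinas were several fold above both HSD retinas. EFNB2, the ephrin that marks dorsal axons and their targets, was at 12.3 and 24.2 FPKM against 2.98 and 2.40 FPKM. BAMBI, a decoy receptor of BMP and TGF-β signalling, was lower by less, at 26.9 and 24.3 FPKM against 12.9 and 11.7 FPKM, and the BMP2 ligand was at 3.13 and 3.25 FPKM against 1.87 and 0.995 FPKM.

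Of 6 ventral genes tested, 4 were higher in HSD, 3 of them without overlap (19.3% of all tested genes), and the other 2 were lower without overlap (19.7% of all tested genes), with a median of 0.27. ALDH1A3, which makes retinoic acid ventrally, was at 6.76 and 0.194 FPKM in ND and 11.9 and 13.9 FPKM in HSD (2.18, limma Benjamini-Hochberg adjusted p = 0.589). VAX2, the ventral homeobox gene, was at 20.9 and 39.6 FPKM in ND and 43.3 and 42.8 FPKM in HSD (0.56, limma Benjamini-Hochberg adjusted p = 0.734). EPHB2, a receptor for ephrin B, was at 7.75 and 7.45 FPKM and 10.8 and 9.74 FPKM. The ND retinas were far apart in ALDH1A3, and without ND replicate 1 the ventral median was 0.03. No source used here gives the part of the retina that was taken.

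Cone genes were mostly higher in HSD. Of 13 tested, 10 lay above ND in both HSD retinas (19.3% of all tested genes did), and 1, OPN1SW, was called (0.0574% of all tested genes). The summed level of the list was 1427 and 1287 FPKM in ND and 1791 and 1845 FPKM in HSD, and its median log2 fold change was 0.36, or 0.23 without ND replicate 2. PDE6C, the cone phosphodiesterase, was at 30.5 and 26.8 FPKM in ND and 44.4 and 50.9 FPKM in HSD (0.71, limma Benjamini-Hochberg adjusted p = 0.163). GNAT2, the cone transducin, was at 89.3 and 67.9 FPKM against 107 and 112 FPKM, and GRK7, which shuts off cone opsins, at 47.5 and 48.3 FPKM against 71.4 and 62.2 FPKM. These 3 genes did not overlap between the groups. KCNV2, a potassium channel subunit of rods and cones, went the other way, at 186 and 159 FPKM in ND and 118 and 131 FPKM in HSD. The dorsal genes were lower and OPN1SW was higher in the same retinas, and the part of that in the cone result was not tested.

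Rod genes lay on both sides of ND. Of 13 tested, 5 were higher and 8 lower, 0 had an unadjusted p under 0.05, and the median was -0.11. It was -0.18 without ND replicate 1 and 0.02 without ND replicate 2.

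Among inner neurons, single genes lay on both sides of ND. Of 17 bipolar genes, 6 were higher and 11 lower. GRIK1, a glutamate receptor of OFF bipolar cells, was at 31.4 and 21.6 FPKM in ND and 39.8 and 39.0 FPKM in HSD, and SCGN, a calcium-binding protein of cone bipolar cells, at 49.9 and 27.2 FPKM and 81.1 and 61.0 FPKM. PCP2, a marker of rod and ON bipolar cells, was lower, at 364 and 518 FPKM against 320.2 and 181 FPKM. The ON bipolar channel TRPM1 was also lower, at 61.5 and 81.7 FPKM against 52.1 and 45.0 FPKM. Each of these 4 had an unadjusted p under 0.05 (2.7% of all tested genes higher, 4.51% lower) and retinas that did not overlap, and none was called. Of the 17, 3 were higher without overlap (19.3% of all tested genes) and 7 lower (19.7% of all tested genes). The median of the list was -0.17.

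Among 15 amacrine genes 11 were higher, with a median of 0.15 that changed sign, to -0.03, without HSD replicate 1. SLC17A8, the vesicular glutamate transporter of glutamatergic amacrine cells, was at 6.56 and 5.93 FPKM in ND and 12.3 and 12.6 FPKM in HSD (0.89, limma Benjamini-Hochberg adjusted p = 0.303). The neuropeptide SST, somatostatin, was at 0.778 and 0.136 FPKM against 3.05 and 4.36 FPKM. VIP, vasoactive intestinal peptide, was lower, at 3.57 and 2.81 FPKM against 1.36 and 1.06 FPKM. Ganglion cell genes gave a median of -0.13 over 13 genes, which was 0.34 without ND replicate 1 and -0.55 without ND replicate 2, so no direction can be given. NEFL, the light neurofilament of their axons, was at 192 and 157 FPKM in ND and 137 and 107 FPKM in HSD.

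Müller glial genes were lower in part. In bulk RNA, fewer cells of a type and less RNA per cell cannot be told apart. Of 19 genes tested 13 were lower (50.5% of all tested genes), 6 with an unadjusted p under 0.05 (4.51% of all tested genes), 0 with an adjusted one. The median of -0.20 was 0.06 without ND replicate 2. GLUL, glutamine synthetase, which detoxifies glutamate and ammonia in these cells, was at 1489 and 2127 FPKM in ND and 754 and 883 FPKM in HSD (-1.12, standard error 0.22, limma Benjamini-Hochberg adjusted p = 0.246). Both HSD retinas were well below both ND retinas. RLBP1, the retinaldehyde carrier of Müller glia and pigment epithelium, was at 149.8 and 305 FPKM against 102 and 131 FPKM. CLU, the chaperone clusterin, was lower in both HSD retinas by less, at 759.7 and 768 FPKM against 583 and 488 FPKM.

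Of the 18 entries of the glutamate, serine and one-carbon list, which holds GLUL as well, 11 were lower and 7 higher, and 5 of the lower ones, GLUL among them, had an unadjusted p under 0.05 (4.51% of all tested genes). PHGDH, the entry enzyme of serine synthesis, was at 25.7 and 39.9 FPKM in ND and 20.2 and 19.8 FPKM in HSD, and PSPH, its last enzyme, at 9.63 and 9.67 FPKM and 5.74 and 4.01 FPKM. ASS1, which makes argininosuccinate, was at 7.57 and 9.41 FPKM and 3.74 and 4.74 FPKM. None of the list was called.

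Astrocyte, myelin, endothelial and mural genes were mostly lower in HSD, by an amount that depended on ND replicate 1. GFAP, the intermediate filament of astrocytes and of reactive Müller glia, was at 524 and 12.1 FPKM in ND and at 2.37 and 1.08 FPKM in HSD (-4.97, standard error 1.76, limma Benjamini-Hochberg adjusted p = 0.591). MBP, myelin basic protein, was at 252 and 6.55 FPKM in ND and 4.34 and 4.16 FPKM in HSD. CLDN5, the tight-junction protein of endothelium, was at 28.0 and 1.03 FPKM in ND and 1.16 and 0.794 FPKM in HSD. In all 3 genes the difference between the ND retinas was larger than that between ND replicate 2 and the HSD retinas. The HFD retinas were between the ND retinas for each, with GFAP at 216 and 203 FPKM, MBP at 172 and 104 FPKM and CLDN5 at 20.3 and 6.76 FPKM.

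All 33 myelin genes tested were lower in HSD, 17 without overlap (19.7% of all tested genes) and 7 with an unadjusted p under 0.05 (4.51% of all tested genes). Without ND replicate 1, 24 were lower. Their median of -1.17 became -0.12 without ND replicate 1 and -2.16 without ND replicate 2. For 20 astrocyte genes the median of -0.85 became -0.33 without ND replicate 1 and -1.53 without ND replicate 2. For 17 endothelial genes it went from -0.60 to 0.15 without ND replicate 1, and to -1.26 without ND replicate 2. For 12 mural genes the median was -0.69, or -0.12 without ND replicate 1. The sign of the endothelial median in HSD against ND therefore rests on that retina. Summed levels did not overlap for myelin, at 2145 and 2541 FPKM in ND against 1308 and 1188 FPKM in HSD, or for endothelium, at 222 and 204 FPKM against 170 and 156 FPKM. They overlapped for mural genes, at 103 and 45.0 FPKM against 40.6 and 59.3 FPKM. The myelin sum was larger in ND replicate 2, with MBP at 6.55 FPKM, than in ND replicate 1, with MBP at 252 FPKM. The sum of that list therefore does not follow MBP. In HFSD against HFD, which holds no ND retina, the medians were also below 0, at -1.06 for myelin (31 of 33 lower), -0.34 for astrocytes (16 of 20), -0.69 for endothelium (15 of 17) and -0.65 for mural genes (10 of 12).

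Some of these genes differed from both ND retinas by a wide margin. GJA1, connexin 43 of astrocytes and pigment epithelium, was at 36.0 and 14.1 FPKM in ND and 0.442 and 1.06 FPKM in HSD (-3.78, standard error 0.49, limma Benjamini-Hochberg adjusted p = 0.0906). SPARC, a matrix protein secreted by glia, was at 621 and 229 FPKM against 78.4 and 70.3 FPKM. HEPACAM, an adhesion protein of astrocytes, was at 42.9 and 30.8 FPKM against 17.1 and 8.62 FPKM. DBNDD2, a myelin-associated gene, was at 99.0 and 72.4 FPKM against 31.8 and 43.1 FPKM. In each of these genes both HSD retinas were below both ND retinas.

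Transporters of the blood-retina barrier were lower for 23 of 29 genes, 11 of them with an unadjusted p under 0.05 (4.51% of all tested genes). SLCO1C1, a carrier of thyroxine, was at 18.3 and 11.04 FPKM in ND and 2.73 and 3.33 FPKM in HSD, and SLCO1A2, an anion carrier, at 4.07 and 3.55 FPKM and 0.505 and 0.179 FPKM. SLC2A1, the main glucose transporter of the barrier and the retina, was at 246 and 297 FPKM in ND and 206 and 169 FPKM in HSD (-0.53, limma Benjamini-Hochberg adjusted p = 0.452). The median of the list was -0.41, from -0.41 to -0.29 on omitting single retinas.

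**Figure D2:**
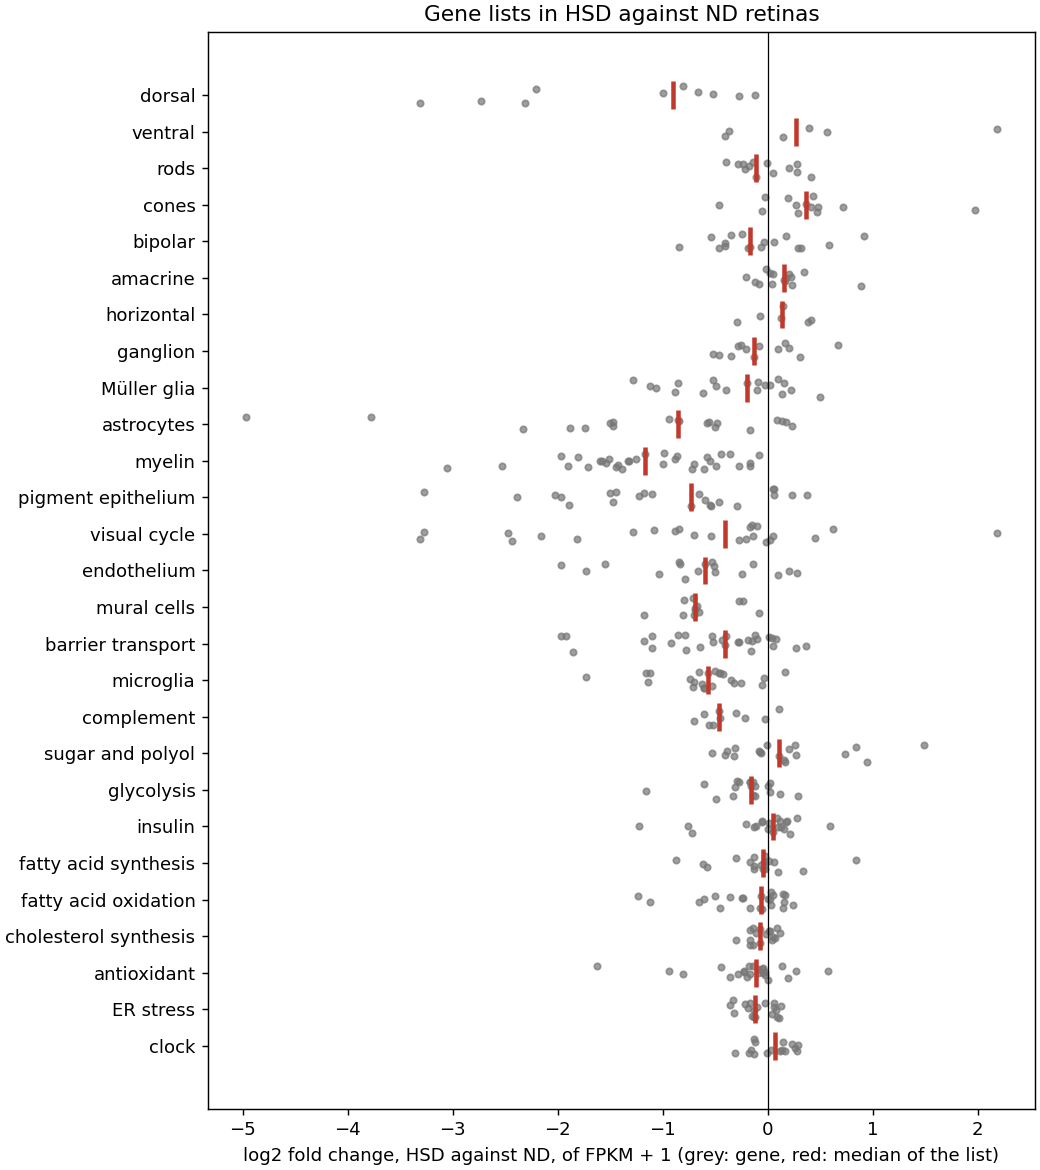
Log2 fold change of each tested gene (grey points, horizontal axis, HSD against ND on the log2(FPKM + 1) scale) for 27 gene lists (vertical axis), with red marks at the median of each list. The dorsal list (median -0.91) and the myelin list (-1.17) have all their points left of 0, and cones (0.36) mostly to its right.

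Most pigment epithelial and retinoid genes were lower in HSD, and the sign of neither median depended on a single retina. Of 23 pigment epithelium genes 18 were lower, 15 without overlap (19.7% of all tested genes) and 11 with an unadjusted p under 0.05 (4.51% of all tested genes). The median was -0.73, and ran from -0.96 to -0.72 on omitting single retinas. Of 24 retinoid genes, which share members with that list, 19 were lower and 5 higher. Among these, 12 were lower (19.7% of all tested genes) and 3 higher (19.3% of all tested genes) without overlap. An unadjusted p under 0.05 was found for 10 lower (4.51% of all tested genes) and 2 higher ones (2.7% of all tested genes). The retinoid median was -0.41, from -0.55 to -0.25 on omitting single retinas. RPE65, the isomerase of the visual cycle, was at 119 and 74.6 FPKM in ND and 18.9 and 13.7 FPKM in HSD (-2.48, standard error 0.56, limma Benjamini-Hochberg adjusted p = 0.318). TTR, the carrier of thyroxine and of retinol-binding protein, was at 144 and 88.6 FPKM against 12.4 and 9.39 FPKM. RDH5, the 11-cis retinol dehydrogenase, was at 14.8 and 13.5 FPKM against 1.82 and 1.79 FPKM (-2.43, limma Benjamini-Hochberg adjusted p = 0.0906).

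LRAT, which stores retinol as esters, was at 9.29 and 3.13 FPKM in ND and 0.349 and 0.580 FPKM in HSD. MFRP, a membrane protein of the pigment epithelium, was at 10.1 and 13.4 FPKM against 2.56 and 4.58 FPKM, and its partner C1QTNF5 at 26.2 and 24.7 FPKM against 5.63 and 12.8 FPKM. Of 10 melanin genes tested 6 were lower, 5 of them without overlap (19.7% of all tested genes), and 4 were higher, 1 without overlap (19.3% of all tested genes), with a median of -0.27. The melanosome proteins PMEL, at 11.3 and 31.9 FPKM against 3.58 and 2.23 FPKM, and TYRP1, at 13.4 and 23.2 FPKM against 3.51 and 3.13 FPKM, were lower too. The HFD retinas, which had no added sucrose, were also below both ND retinas: RPE65 was at 34.8 and 10.1 FPKM, RDH5 at 2.72 and 2.73 FPKM and LRAT at 0.746 and 0.749 FPKM there. How much pigment epithelium came with each dissected retina is not stated in the sources used here, and its part in the result was not tested.

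Most microglial and complement genes were lower in HSD. Of 23 microglial genes 22 were lower, 8 with an unadjusted p under 0.05 (4.51% of all tested genes), and SRGN, which is also on the endothelial list, was called (0.0574% of all tested genes). The median of -0.57 was -0.17 without ND replicate 1. CD74, the invariant chain of MHC class II, was at 6.12 and 3.64 FPKM in ND and 1.55 and 1.58 FPKM in HSD, and RLA-DR-ALPHA, a class II chain of the rabbit, at 2.49 and 1.58 FPKM and 0.152 and 0.601 FPKM. SPP1, osteopontin, which ganglion cells and microglia can both make, was at 346 and 716 FPKM and 242 and 217 FPKM. Both HSD retinas were below both ND retinas for these 3 genes. The receptor CSF1R was at 2.38 and 1.64 FPKM in ND and 0.583 and 1.12 FPKM in HSD. AIF1, which encodes the microglial protein IBA1, was low in all, at 1.09 and 0.272 FPKM and 0.284 and 0.459 FPKM.

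Of 10 complement genes 9 were lower, with a median of -0.46. C1QC, part of the complement recognition complex, was at 4.82 and 4.12 FPKM in ND and 2.72 and 2.46 FPKM in HSD, and SERPING1, the inhibitor of C1, at 1.85 and 2.15 FPKM and 0.818 and 1.27 FPKM. Of 14 inflammatory genes 5 were higher and 9 lower, with a median of -0.17 that was -0.02 without ND replicate 1.

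**Figure D3:**
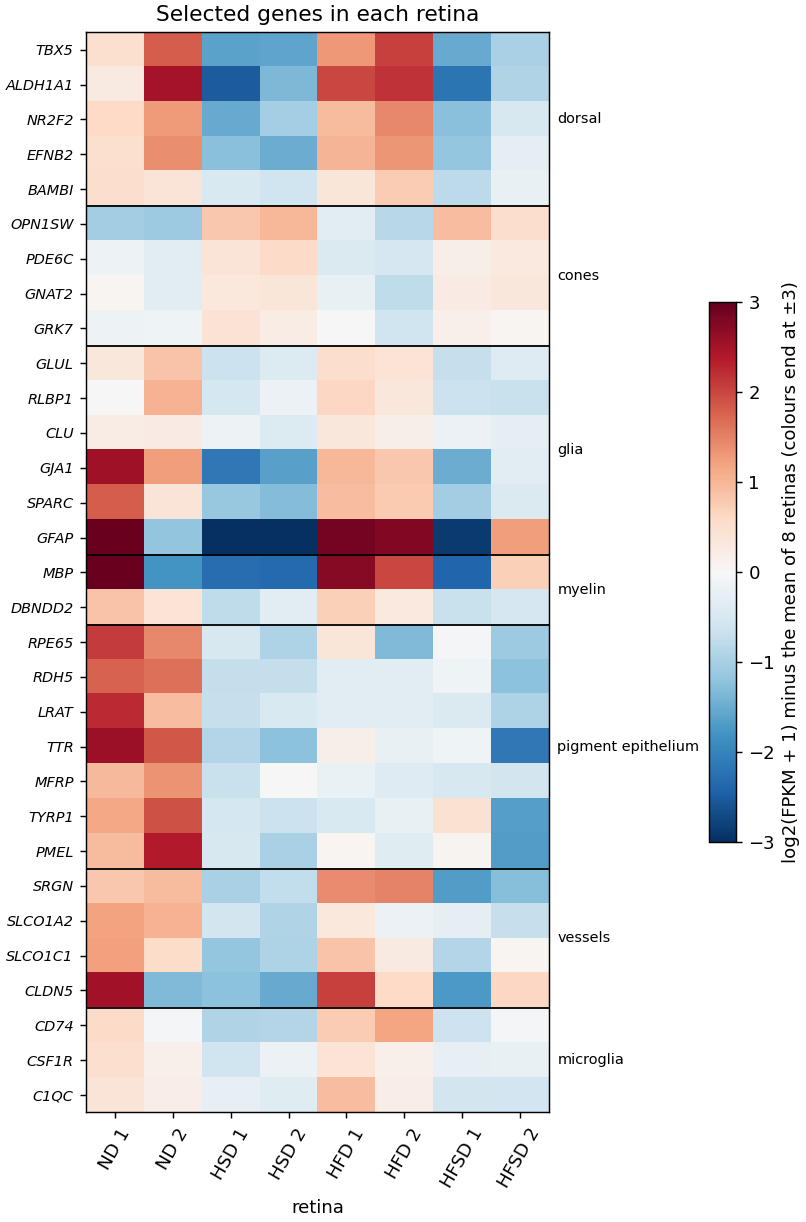
Colour gives log2(FPKM + 1) of each gene in each retina minus the gene's mean over 8 retinas, cut at 3 units either way, with genes in rows by group and retinas in columns. ND 1 stands above ND 2 for GFAP, MBP and CLDN5, the HSD and HFSD columns are lower for dorsal genes, and pigment epithelium genes are highest in the ND columns.

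The enzymes of sugar handling lay on both sides of ND. Of 19 sugar and polyol genes 10 were higher and 9 lower, with a median of 0.11. Without overlap, 9 were higher (19.3% of all tested genes) and 3 lower (19.7% of all tested genes). SORD was at 18.3 and 33.4 FPKM in ND and 48.6 and 36.4 FPKM in HSD (0.74, standard error 0.28, limma Benjamini-Hochberg adjusted p = 0.646). It was at 34.4 and 38.2 FPKM in HFD, also above both ND retinas, and lower with sucrose in HFSD, at 31.6 and 23.1 FPKM. The interaction for SORD was -1.15 (limma Benjamini-Hochberg adjusted p = 0.999). AKR1B1 was at 14.7 and 18.8 FPKM in ND and 18.2 and 15.1 FPKM in HSD, overlapping between the groups. KHK was slightly lower, at 31.5 and 30.1 FPKM against 23.1 and 26.0 FPKM (-0.32, limma Benjamini-Hochberg adjusted p = 0.646), and TKFC, which phosphorylates glyceraldehyde from fructose, was at 25.8 and 29.0 FPKM against 21.9 and 19.7 FPKM.

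Members on the higher side were GALM, which interconverts the anomers of sugars, at 41.2 and 55.9 FPKM in ND and 75.5 and 115 FPKM in HSD, and THRSP, a target of carbohydrate-responsive transcription in liver, at 1.58 and 0.748 FPKM and 3.36 and 2.30 FPKM. TXNIP, whose transcription responds to glucose, overlapped between the groups at 7.01 and 5.98 FPKM and 2.84 and 7.28 FPKM. Of 19 glycolytic genes 14 were lower, with a median of -0.16 and 1 member at an unadjusted p under 0.05. GAPDH varied widely between retinas, at 925 and 542 FPKM in ND and 241 and 416 FPKM in HSD.

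Insulin-signalling genes gave a median of 0.05 over 21, with IGFBP5, which binds insulin-like growth factors, at 43.6 and 25.5 FPKM in ND and 18.3 and 10.2 FPKM in HSD. INSR, the insulin receptor, overlapped at 15.6 and 16.8 FPKM and 16.5 and 17.01 FPKM.

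Most lipid lists had medians near 0. The median was -0.04 for 19 genes of fatty acid synthesis, -0.07 for 17 of cholesterol synthesis and -0.07 for 23 of fatty acid oxidation, beside -0.002 over all tested genes. These values moved with single retinas, for cholesterol synthesis to 0.13 (5 of 17 lower) without ND replicate 1 and to -0.23 (17 of 17 lower) without ND replicate 2, so no direction can be given for it. On omitting single retinas the other medians ran from -0.11 to -0.05 for synthesis and from -0.19 to -0.06 for oxidation of fatty acids. The list of lipid handling lay lower, with 13 of 17 genes below ND, 6 of them without overlap (19.7% of all tested genes), and a median of -0.19 that ran from -0.25 to -0.12 on omitting single retinas. The desaturase FADS2, at 45.3 and 33.6 FPKM against 20.4 and 21.3 FPKM, and the elongase ELOVL5, at 27.3 and 24.3 FPKM against 16.1 and 16.8 FPKM, both of polyunsaturated fatty acid synthesis, were lower without overlap. Neither was called. ACSL5, which activates fatty acids, was at 2.54 and 2.62 FPKM in ND and 0.375 and 0.685 FPKM in HSD. Of the oxidation genes, 6 had an unadjusted p under 0.05 and all 6 were lower (4.51% of all tested genes). CPT2, of the mitochondrial carnitine shuttle, was at 5.47 and 6.69 FPKM against 4.75 and 4.25 FPKM. NPC2, which exports cholesterol from lysosomes, was at 59.0 and 96.2 FPKM against 38.4 and 42.2 FPKM, and CIDEA, a lipid droplet protein, at 5.72 and 4.58 FPKM against 1.21 and 1.32 FPKM.

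Stress lists gave small medians. The median was -0.12 over 24 antioxidant genes, of which 20 were lower, and -0.04 with 14 lower without ND replicate 2. SELENOP, the selenium carrier, was at 282 and 238 FPKM in ND and 139.9 and 129 FPKM in HSD (-0.94, standard error 0.13, limma Benjamini-Hochberg adjusted p = 0.119). SLC7A11, the cystine transporter, was higher, at 4.61 and 5.71 FPKM against 6.89 and 9.63 FPKM. Of 19 genes of endoplasmic reticulum stress 7 were higher and 12 lower, 0 with an unadjusted p under 0.05. Heat shock genes had a median of -0.03 (0.03 without HSD replicate 2) over 17, of which 2 belong to the muscle set. Of these genes BAG2 was called (0.0574% of all tested genes). HSPH1, a co-chaperone of HSP70, was at 34.4 and 30.2 FPKM against 49.2 and 41.3 FPKM.

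Immediate early genes, which are switched on within minutes by activity or handling, were lower for 14 of 17 with a median of -0.50, and of -0.11 without ND replicate 1. FOSB was at 169.7 and 19.5 FPKM in ND and 8.33 and 3.47 FPKM in HSD. The phosphatases DUSP2, at 493 and 198 FPKM against 119 and 62.9 FPKM, and DUSP6, at 33.3 and 55.3 FPKM against 10.7 and 16.8 FPKM, shut off MAP kinases. Of 20 feedback regulators of growth factor signalling 15 were lower, with a median of -0.21. DUSP4, another such phosphatase, was at 22.7 and 23.4 FPKM against 16.6 and 9.26 FPKM, and SPRY2, an inhibitor of receptor tyrosine kinases, at 56.3 and 64.8 FPKM against 47.1 and 51.6 FPKM. DUSP10 was on the higher side, at 13.5 and 13.9 FPKM against 17.6 and 16.4 FPKM. In HFD, without added sucrose, DUSP2 was at 59.5 and 124 FPKM and DUSP6 at 20.3 and 16.7 FPKM, also below both ND retinas. FOSB was at 2.68 and 24.8 FPKM in HFD, overlapping with ND. Clock genes had a median of 0.07 over 16, with 0 at an unadjusted p under 0.05.

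The HFSD against HFD comparison, on other retinas of the same model, mostly shared the direction. Of the 870 genes with an unadjusted p under 0.05 in HSD against ND outside the muscle set (7.15% of those tested), 733 (84.25%) had the same sign there, beside 8163 of 12173 (67.06%) over all tested genes. The share was 87.07% for the 549 lower genes and 79.44% for the 321 higher ones. Across the 870 genes the log2 fold changes correlated with r = 0.643, a description over genes, which are not independent. The share was 68.67% without ND replicate 2, beside 58.79% over all tested genes in that fit, and 74.93% without HFD replicate 1.

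Dorsal genes and GLUL had the same direction in both comparisons. TBX5 was at 6.61 and 11.7 FPKM in HFD and 0.0848 and 0.560 FPKM in HFSD, and ALDH1A1 at 47.8 and 53.4 FPKM and 1.68 and 5.52 FPKM. All 10 dorsal genes were lower in HFSD than in HFD, with a median of -0.87. Of the 6 ventral genes 3 were lower there, with a median of 0.03, beside 0.27 in HSD against ND. GLUL was at 1685 and 1551 FPKM in HFD and 722 and 889.7 FPKM in HFSD. Of the 6 called genes with a symbol, all but BAG2 also had the direction seen in HSD. PXYLP1 was at 196 and 214 FPKM in HFD and 39.4 and 43.9 FPKM in HFSD, S100A13 at 25.5 and 19.2 FPKM and 6.64 and 6.74 FPKM, S100A1 at 184 and 144 FPKM and 34.5 and 45.3 FPKM, and OPN1SW at 114 and 80.9 FPKM and 276 and 209 FPKM. SRGN went from 59.3 and 62.4 FPKM in HFD to 6.00 and 8.29 FPKM in HFSD, a log2 fold change of -2.94.

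The pigment epithelium list lay nearer to 0 there. Its median was -0.25 in HFSD against HFD, beside -0.73 in HSD against ND, and 0 of its members had an adjusted p under 0.05 for the difference. RPE65 was at 34.8 and 10.1 FPKM in HFD and 25.6 and 12.1 FPKM in HFSD, and RDH5 at 2.72 and 2.73 FPKM and 3.21 and 0.956 FPKM. BAG2 was lower with sucrose there, at 71.3 and 70.1 FPKM in HFD and 55.8 and 53.7 FPKM in HFSD. The difference between the comparisons was tested by the interaction in the same model: it was -1.35 for BAG2 (limma Benjamini-Hochberg adjusted p = 0.0879), and 1 gene, the one without a symbol, had an adjusted p under 0.05 (0.00819% of 12204), while 456 genes (3.74%) had an unadjusted p under 0.05.

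**Figure D4:**
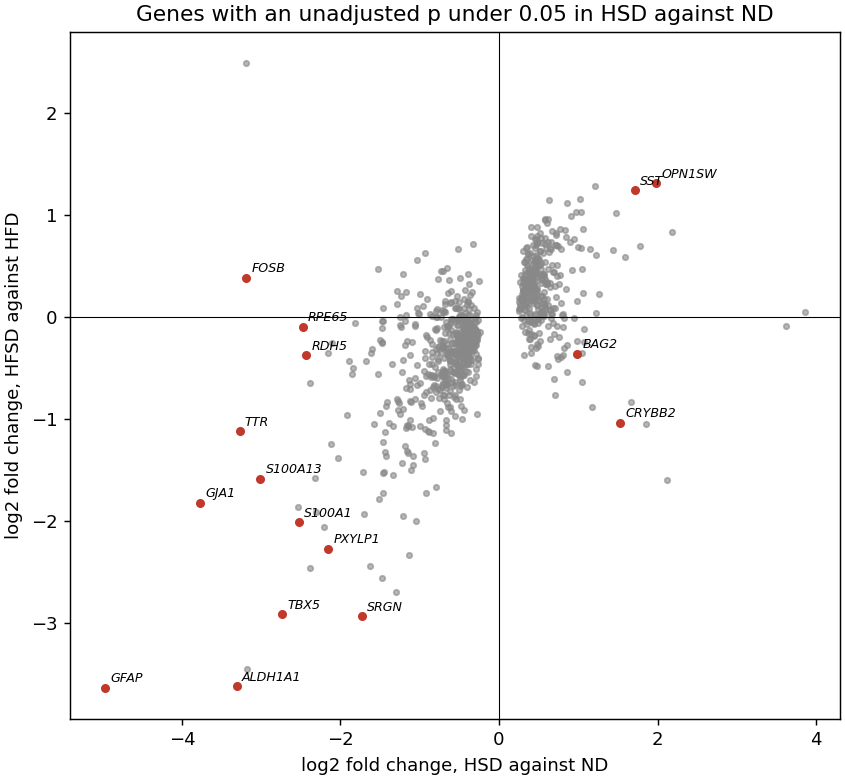
Each point is 1 of the 870 genes with an unadjusted p under 0.05 in HSD against ND, by its log2 fold change in HSD against ND (horizontal axis) and in HFSD against HFD (vertical axis), with named genes in red. Most points share a sign, such as S100A13 and OPN1SW, while BAG2 is higher in the one and lower in the other.

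Skeletal muscle genes were high in HSD replicate 2 and low or listed at 0 in most of the other 7 retinas. Of 102 muscle symbols 95 were found, in 96 entries, and HSD replicate 2 was above all 7 others for 90. Their summed level was 1407 FPKM in HSD replicate 2 and between 174 and 199 FPKM in the others, or 0.263% of all protein-coding FPKM against 0.0303% to 0.0372%. The list passed the upper fold limit in 79 entries, and in 5 without HSD replicate 2.

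The fast myosin light chain MYL1 was at 0 and 141 FPKM in HSD and at 0.177 and 0 FPKM in ND, actin ACTA1 at 0.224 and 105 and 0.0451 and 0.349 FPKM, and creatine kinase CKM at 0 and 57.1 and 0.0829 and 0 FPKM. TNNC2, fast troponin C, was listed at 0 FPKM in the other 7 retinas and at 77.8 FPKM in HSD replicate 2. TPM3, a tropomyosin that retina also expresses, was at 61.7 and 104 FPKM in HSD and 73.6 and 63.6 FPKM in ND. Genes at 1 FPKM or more in HSD replicate 2 and at least 10 times the highest other retina numbered 53, and together with the muscle list made a muscle set of 106 entries. Decorin (DCN), a connective tissue gene outside that set, was also high in HSD replicate 2, at 1.77 and 16.2 FPKM in HSD and 1.62 and 0.532 FPKM in ND.

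**Figure D5:**
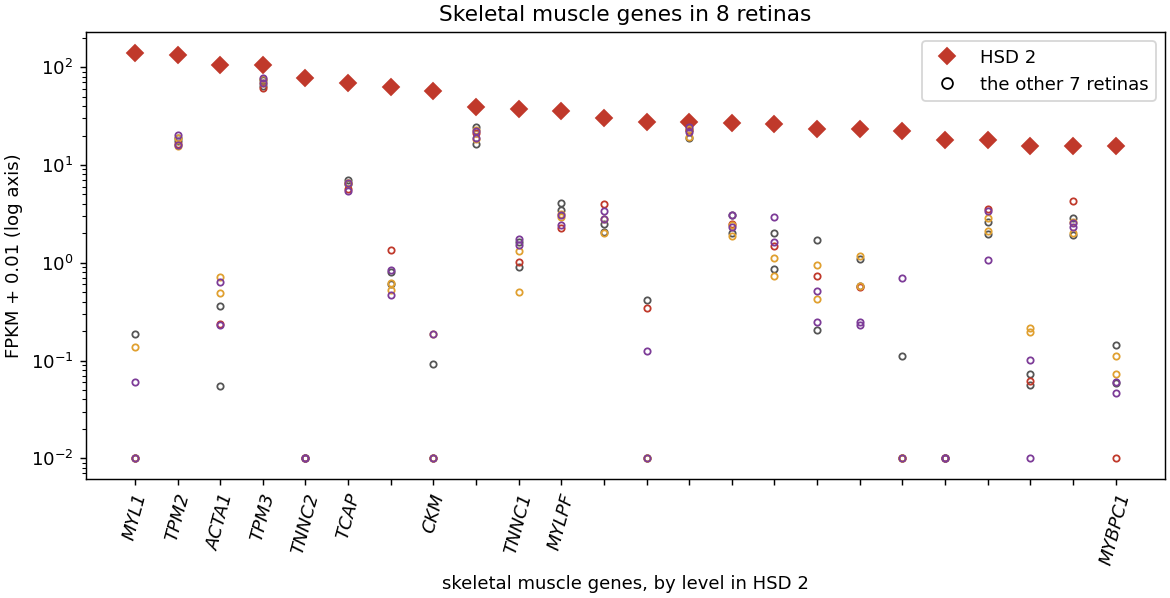
FPKM plus 0.01 (vertical log axis) of 24 skeletal muscle genes, in order of their level in HSD replicate 2, with filled diamonds for HSD replicate 2 and open circles for the other 7 retinas, and with names for genes given in the text. The diamonds are above all circles, from MYL1 (141 FPKM) to MYBPC1.

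Of 15 lens entries 3 passed the filter on low values, 2 higher and 1 lower in HSD. CRYBB2 was at 2.92 and 3.83 FPKM in ND and 12.2 and 10.9 FPKM in HSD, and CRYBB3 at 8.15 and 5.50 FPKM and 16.1 and 18.1 FPKM. Both of these crystallins lay above ND in both HSD retinas, and neither was called. Blood genes overlapped between the groups, with summed values of 82.7 and 8.19 FPKM in ND and 0.797 and 42.9 FPKM in HSD. Among other genes with wide margins, AHCYL2, a regulator of bicarbonate transport, was at 85.3 and 143 FPKM in ND and 210.4 and 252 FPKM in HSD, and VSTM2A, a secreted immunoglobulin-domain protein, at 13.6 and 6.79 FPKM and 28.2 and 19.8 FPKM. Each lay higher in both HSD retinas. The matrix protein PRELP was at 10.6 and 11.2 FPKM and 4.43 and 3.43 FPKM (-1.28, limma Benjamini-Hochberg adjusted p = 0.0906). TIMP3, an inhibitor of matrix proteases, was at 18.1 and 10.4 FPKM in ND and 1.84 and 3.59 FPKM in HSD.

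Several of the 15 genes with the largest differences on the higher side, among those named by rule, were at low levels. CEP192, a centrosome protein, was at 3.41 and 2.74 FPKM in ND and 5.68 and 11.02 FPKM in HSD (1.14, limma Benjamini-Hochberg adjusted p = 0.420). CHML, a Rab escort protein, was at 0.882 and 1.38 FPKM against 2.86 and 4.16 FPKM, and the TNF receptor family member TNFRSF17 at 0 and 0.405 FPKM against 1.36 and 1.35 FPKM. TNFRSF17 rests on few fragments, at 0 and 4 in the ND retinas against 12 and 13 in the HSD retinas.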

How the data were processed

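Retinal RNA was extracted by the authors with TRIzol and sequenced as TruSeq libraries on a HiSeq instrument, and reads were checked with FastQC and mapped with TopHat2. The genome build and annotation are not given in the sources used here. The deposited table holds FPKM, computed by the authors, for 25666 genes in 8 libraries, although its name speaks of counts. A count test was therefore not used for the main result. Of 19293 protein-coding genes, 13297 entries carry a symbol, and 12495 of their 13292 different symbols stand in a RefSeq table of another build that was used for names only.

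Whole fragments and the depth of each library were recovered from the steps of the FPKM values (99.99% of values above 0 came out whole within 0.02 of a fragment). Which total that depth is was not determined. Intervals from fragments cover counting error only.

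Genes that code for protein and reached 1 FPKM in 2 or more of 8 libraries were tested, 12204 in all. A single limma model (3.58.1, R 4.3.3) of the 8 libraries was fitted to log2(FPKM + 1), with moderation along a mean-variance trend. P-values were adjusted by Benjamini-Hochberg, and an adjusted p under 0.05 was called. Log2 fold changes on this scale understate those of low genes. Gene lists (45) were described by counts and medians only, and a muscle set of 106 entries was set apart. Genes were named by rule: all called genes, the 15 largest differences each way with an unadjusted p under 0.05 and no overlap, up to 6 such members of each list, the 12 highest muscle genes, and a few fixed genes. Some genes that this rule names are not reported here. Lists, rules and members were chosen with earlier results of these data known, and the lists with supplementary results of the study at hand. The steps were tested on simulated data. Same-numbered retinas did not deviate together (correlations from -0.165 to 0.0813), so replicate numbers were not used to pair retinas.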

Additional observations from a re-analysis of the deposited data

Results flagged for a closer look

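A protein-coding gene that carries no symbol in the table differed between the comparisons of sucrose with no added sucrose. It was at 23.4 and 15.8 FPKM in ND, 256 and 240.3 FPKM in HSD, 349.6 and 251 FPKM in HFD, and 259 and 298 FPKM in HFSD. The log2 fold change was 3.62 in HSD against ND and -0.09 in HFSD against HFD, and the difference between these was -3.71 (adjusted p = 0.0489, limma with Benjamini-Hochberg adjustment). This was the 1 gene called among 12204, and it was not called under the other pseudocount, the other scaling, the replicate block or voom.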

How the results depend on the processing

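With 2 retinas a group, counts of calls moved with the settings. The 7 called genes became 3 in a fit of the 4 ND and HSD libraries alone and 2 with voom on recovered fragments, an alternative added after seeing the data, and between 3 and 17 with a retina left out. Genes called higher, 3, became 6 without the filter on low values, 1 with the replicate block and 1 to 14 with a retina left out. Genes called lower, 4, became 1 with the 4 libraries alone, 0 with voom (792 genes of either direction at an unadjusted p under 0.05) and 2 to 8 with a retina left out. Without the filter, 10 were called, of which 1 was shared. The interaction, 1 gene, became 0 with a pseudocount of 0.1, other scaling, the replicate block or voom, 18 without the filter, and 0 to 10 with a retina left out. The share of genes with the same sign in HFSD against HFD, 84.25%, ran from 68.67% to 86.19% with a retina left out. With a pseudocount of 0.1 in place of 1, 2311 genes passed the fold limits (1043 higher, 1268 lower), and with a retina left out from 881 to 1116 (241 to 649 higher, 467 to 649 lower). At 5 times in place of 10, 83 genes stood apart in HSD replicate 2. The replicate numbers share only a number, and the block gave 5 calls, 4 of them shared. AKR1B1 changed sign to 0.006 by scaling and 0.032 by voom. With a retina left out, log2 fold changes that changed sign ran from -0.171 to 0.166 for AKR1B1, -0.005 to 0.101 for INSR, -0.961 to 0.147 for TXNIP and -0.612 to 0.106 for AIF1. Those of muscle genes, lowest without HSD replicate 2, ran from -0.129 to 2.818 for TPM2, -0.146 to 0.601 for TPM3, -0.196 to 3.212 for TCAP, -0.152 to 4.105 for TNNC1 and -0.549 to 2.934 for MYLPF. In low genes the depth limits the statement, since 1 fragment on 1000 bases was worth 0.0439 to 0.0634 FPKM.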

Other observations

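Matrix genes were lower in HSD as a group, 16 of 25, with a median log2 fold change of -0.68, but -0.10 without ND replicate 1. Of 12 thyroid hormone genes 7 were lower and 5 higher. Of the 13 genes encoded in mitochondrial DNA 10 were higher, with a median of 0.10 that changed to -0.15 without HSD replicate 2.

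Among rows that are not protein-coding, 42 small nucleolar RNA rows passed the upper fold limit with retinas that did not overlap and 17 the lower, out of 937. As shares of all rows of a kind, these were 4.48% higher and 1.81% lower for small nucleolar RNA, 3.06% (18) and 0.68% (4) of 588 microRNA rows, and 0.954% (184) and 1.79% (345) of 19293 protein-coding genes. Libraries of this kind are not made for small RNA, and these rows were not tested.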
